A study of Mus musculus with 13 samples.

Results

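The genes described here code for subunits of the mitochondrial respiratory chain and ATP synthase, measured in mouse inguinal white adipose tissue, fat that lies under the skin of the groin. They were chosen by gene symbol: 38 nuclear genes and the 13 protein-coding genes of the mitochondrial genome, 51 of the 54532 genes listed. By complex, the nuclear genes comprised 15 of complex I, 4 of complex II, 5 of complex III, the gene for cytochrome c, 7 of complex IV and 6 of complex V. The mitochondrial genes comprised 7 of complex I, 1 of complex III, 3 of complex IV and 2 of complex V. Only Atp5o was listed in more than 1 row, and the unused row was at 0 in every library. All 51 genes reached an FPKM of 1 in at least 3 libraries, as did 14421 genes in all. FPKM is a fragment count scaled by gene length and by a total for each library. That total was 0.479 (SF_HPD 2), 0.585 (SC_ConD 2) and up to 1.23 (SF_HPD 1) times the reads recovered from the values. The sum of FPKM over all genes ranged 5.03-fold between libraries, and FPKM levels below are not corrected for this.

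RNA came from single mice that had fasted for 12 h, and 1 library was made per mouse. The SC_ConD group (3 libraries) had normal sleep and a normal chow diet. The SF_ConD group (5 libraries) had fragmented sleep and the same chow. The SF_HPD group (5 libraries) had fragmented sleep and a high-protein diet with 50% of calories from protein, 12% from fat and 38% from carbohydrate. No group combined normal sleep with the high-protein diet, so the diet was varied under fragmented sleep only. The sources used here give no strain, sex, age or length of treatment. The comparison of SF_ConD with SC_ConD addressed sleep fragmentation, and that of SF_HPD with SF_ConD addressed the diet during fragmentation. Whole tissue was used, so fewer cells of a type and less RNA per cell cannot be told apart.

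The respiratory chain passes electrons from NADH through complex I, or from succinate through complex II, to coenzyme Q, then through complex III and cytochrome c to complex IV, which reduces oxygen. Complexes I, III and IV pump protons, and complex V, ATP synthase, uses their return to make ATP. Complex II is wholly nuclear-encoded, whereas the other complexes hold subunits from both genomes. The mitochondrial genome is transcribed as long precursors from both strands that are cut into separate RNAs, so its genes share promoters that no nuclear gene uses. White fat cells are known for few mitochondria, and brown or beige fat cells for many.

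Libraries stood apart in ways that touch these genes. Libraries held 14815592 to 18303302 recovered reads. The 12 adipocyte markers all reached 1 FPKM, but their mean log2(FPKM + 1) was 4.53 in SF_HPD 2 against 7.90 to 9.53 in the other libraries, and adiponectin (Adipoq) was at 26.1 FPKM there against 666 to 4231. Liver markers (14 of 14 reached 1 FPKM) were at 9.72 in SC_ConD 2 and 8.59 in SC_ConD 3, and at 1.72 to 4.89 in the other 11, and albumin (Alb) was at 4223 and 1614 FPKM in that pair. Muscle markers (11 of 12, with Tnnc2 at 0 throughout) were at 9.02 in SF_HPD 4 and 5.99 in SC_ConD 3. B cell and lymph node markers (14 of 14) were at 4.92 to 5.97 in SF_ConD 1, 4 and 5 and SF_HPD 4 and 5, against at most 1.56 elsewhere. The brown or beige list (9 of 10) was highest in SF_HPD 5, at 5.17, where the uncoupling protein Ucp1 was at 124 FPKM against at most 35.3 elsewhere. No pair of libraries agreed within sampling noise (smallest chi-square per degree of freedom 77.7), so each library was counted as 1 sample. The part that RNA of other tissues played in the members' levels was not tested.

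The mitochondrial genes are packed with almost no space between them, and some share bases or have a near-identical copy elsewhere, which bears on how their reads were assigned. The end of mt-Atp8 and the start of mt-Atp6, both ATP synthase subunits, share 43 bases (MT:7927-7969 on GRCm38, plus strand). The sequences are from the GENCODE transcripts, 5′ to 3′, and capitals mark the shared bases.
mt-Atp8 end: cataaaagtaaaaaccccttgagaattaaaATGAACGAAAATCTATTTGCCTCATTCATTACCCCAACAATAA
mt-Atp6 start: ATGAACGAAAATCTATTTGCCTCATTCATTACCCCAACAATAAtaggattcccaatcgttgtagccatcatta
Likewise the complex I genes mt-Nd4l and mt-Nd4 share 7 bases (MT:10167-10173, plus strand), in capitals here.
mt-Nd4l end: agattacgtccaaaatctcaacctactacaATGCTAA
mt-Nd4 start: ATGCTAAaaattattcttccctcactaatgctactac

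A stretch of chromosome 1 (chr1:24611535-24616197, GRCm38, minus strand) holds 7 listed genes that match mitochondrial members along all or nearly all of their length. Gm28661 was identical to mt-Co2 over 681 of 681 bases, Gm10925 to mt-Atp6 over 678 of 678, Gm28437 to mt-Co3 over 783 of 783 and Gm10222 to mt-Nd4l over 294 of 294. Gm28439 matched the first 876 bases of mt-Nd4 without a difference. Gm28438 differed from mt-Nd3 at 1 of 345 bases (T3C, counted from the first base of mt-Nd3, with the mitochondrial base first). Gm29216 differed from mt-Co1 bases 1063 to 1545 at 1 of 483 (A1066T, counted from the first base of mt-Co1). These stretches show how little separates the copies, with the base that differs in capitals.
mt-Nd3: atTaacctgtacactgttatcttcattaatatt
Gm28438: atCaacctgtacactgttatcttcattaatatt
mt-Co1: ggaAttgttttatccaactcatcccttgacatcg
Gm29216: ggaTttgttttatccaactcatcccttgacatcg
Reads from the identical stretches cannot be told apart by sequence, so mt-Co2, mt-Atp8, mt-Atp6, mt-Co3, mt-Nd3 and mt-Nd4l, which lie inside the copied span, are given below as uncertain. No copy of mt-Atp8 is listed there, although the gene lies between mt-Co2 and mt-Atp6.

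The 13 mitochondrial genes took 2.69% of a library's reads in SF_HPD 1 and 32.0% in SF_ConD 5, an 11.9-fold range. Their share was 15.9%, 6.37% and 15.7% in SC_ConD 1 to 3. It was 10.9%, 14.3%, 16.5%, 14.1% and 32.0% in SF_ConD 1 to 5, and 2.69%, 5.45%, 8.55%, 10.2% and 24.6% in SF_HPD 1 to 5. The groups overlapped, with means of 12.7% ± 5.45 (SD, n = 3), 17.6% ± 8.29 (SD, n = 5) and 10.3% ± 8.49 (SD, n = 5). The 38 nuclear genes together took far less, from 0.964% in SF_ConD 5 to 1.99% in SC_ConD 2, with group means of 1.46% ± 0.464 (SD, n = 3), 1.24% ± 0.406 (SD, n = 5) and 1.23% ± 0.260 (SD, n = 5).

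On the log2(FPKM + 1) scale, the mean of the 38 nuclear genes was 6.69, 8.44 and 7.42 in SC_ConD 1 to 3, 7.33, 7.85, 6.51, 6.75 and 7.23 in SF_ConD 1 to 5, and 6.30, 7.86, 7.06, 6.44 and 8.14 in SF_HPD 1 to 5. The nuclear level thus ranged 4.39-fold, and its extremes, SF_HPD 1 and SC_ConD 2, lay in different groups. For the mitochondrial genes the mean was 11.08, 10.10 and 10.96 in SC_ConD, 10.93, 11.08, 10.73, 10.79 and 12.59 in SF_ConD, and 7.77, 10.15, 9.59, 10.46 and 12.35 in SF_HPD. That range was 28.4-fold and ran from SF_HPD 1 to SF_ConD 5. Rescaling to TPM brought it to 9.27-fold for the mitochondrial and 2.35-fold for the nuclear genes, with SF_HPD 1 and SF_ConD 5 again at the mitochondrial extremes. The nuclear extremes changed, to SF_HPD 2 as the lowest (7.47) and SF_ConD 2 as the highest (8.70).

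The balance of both genomes, the mitochondrial minus the nuclear mean, does not depend on a library's scaling beyond the pseudocount. It was 4.39, 1.67 and 3.54 in SC_ConD, 3.60, 3.23, 4.21, 4.04 and 5.37 in SF_ConD, and 1.46, 2.29, 2.54, 4.02 and 4.21 in SF_HPD. The group means were 3.20 ± 1.39 (SD, n = 3), 4.09 ± 0.81 (SD, n = 5) and 2.90 ± 1.18 (SD, n = 5). SF_ConD was thus 0.89 above SC_ConD, and SF_HPD was 1.19 below SF_ConD, but the values overlapped in both cases, and neither score was tested because the members were chosen with results of these data known. SF_HPD 1, 2 and 3 lay below all 5 SF_ConD libraries, while SF_HPD 4 and 5 lay among them. Leaving out SF_ConD 5 and SF_HPD 1, which held the highest and lowest mitochondrial shares, brought the second difference to -0.51. The first difference was 0.13 without SC_ConD 2, the library with the highest liver markers, and 1.49 without SC_ConD 1.

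**Figure D1:**
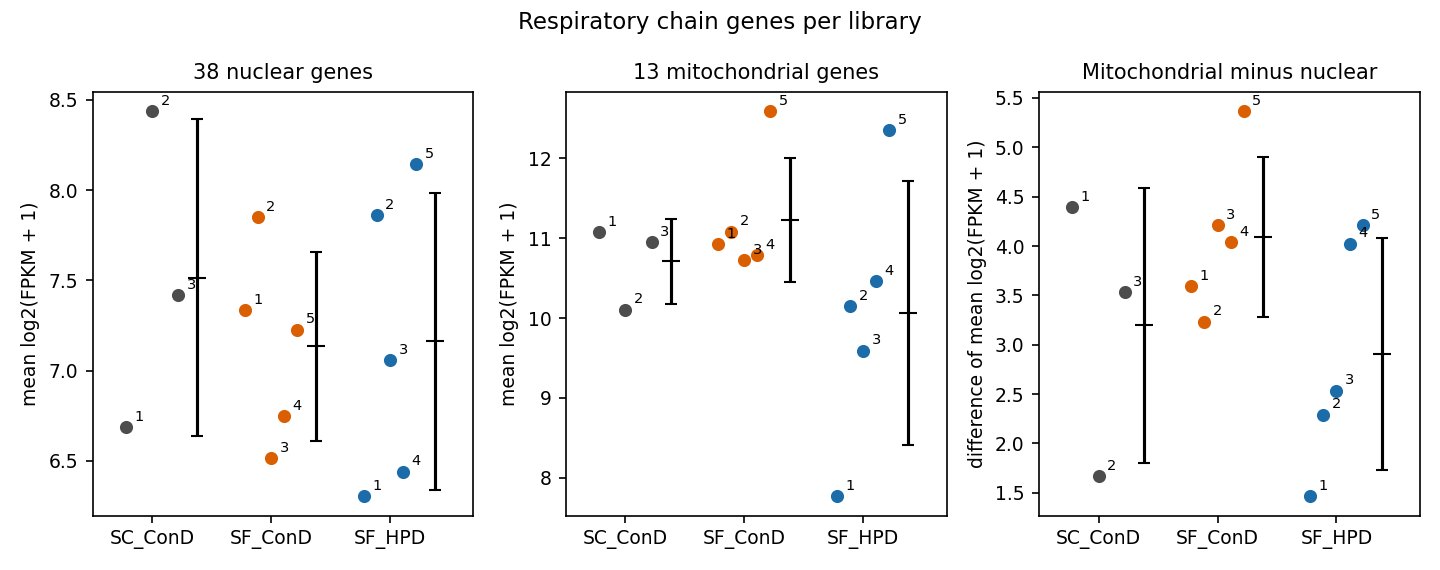
Mean log2(FPKM + 1) of the 38 nuclear genes (left) and the 13 mitochondrial genes (middle), and their difference (right), by group. Each point is 1 library with its replicate number, and bars give the group mean and SD. Groups overlap in each panel, and the mitochondrial mean ranges from 7.77 (SF_HPD 1) to 12.59 (SF_ConD 5).

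In complex I, the nuclear gene with the highest mean was Ndufa2, an accessory subunit. Ndufa2 was at 149, 2602 and 826 FPKM in SC_ConD 1 to 3, at 614, 541, 250.2, 349 and 637 in SF_ConD 1 to 5 and at 162, 2198, 474, 139 and 1038 in SF_HPD 1 to 5. SC_ConD 2 and SF_HPD 2 were the highest and SF_HPD 4 the lowest, an 18.7-fold range, and all 3 groups overlapped. Ndufs1 codes for the largest core subunit, which carries iron-sulfur clusters that pass on the electrons given up by NADH. For Ndufs1 the libraries gave 23.0, 4.74 and 4.70 FPKM in SC_ConD, 6.23, 13.8, 15.2, 8.18 and 8.06 in SF_ConD and 19.0, 2.91, 7.31, 22.5 and 11.8 in SF_HPD, in replicate order. SC_ConD 1, SF_HPD 4 and SF_HPD 1 were highest and SF_HPD 2 was lowest. Ndufa9, a subunit at the joint of the matrix and membrane arms, was 4.05-fold higher in SC_ConD 2 than in SF_ConD 3. In replicate order, Ndufa9 had 60.8, 166 and 101 FPKM in SC_ConD, 84.8, 116, 41.1, 54.9 and 66.6 in SF_ConD and 41.8, 77.5, 69.8, 51.8 and 124 in SF_HPD. The other 12 complex I genes had ranges of 2.38-fold (Ndufv1, which binds NADH) to 18.2-fold (Ndufa1). Ndufa4, counted here by its name, is known to belong to complex IV and ranged 12.9-fold.

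Complex II oxidizes succinate and also works in the citric acid cycle. Its gene with the highest mean was Sdhd, a membrane anchor. SC_ConD 1 to 3 had 143, 283 and 215 FPKM of Sdhd, SF_ConD 1 to 5 had 256, 377, 129, 167 and 195 and SF_HPD 1 to 5 had 119.9, 282, 199, 110.3 and 408. SF_HPD 5 and SF_ConD 2 were highest, and the groups overlapped with near-equal means of 214 ± 70.0 (SD, n = 3), 225 ± 96.8 (SD, n = 5) and 224 ± 124 (SD, n = 5) FPKM. Sdha, the flavoprotein that oxidizes succinate, was highest in SC_ConD 1, at 247 FPKM, and lowest in SF_HPD 2, at 44.2 FPKM. Sdhc, the other anchor, ranged only 2.32-fold and Sdhb, the iron-sulfur subunit, 4.37-fold.

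In complex III, Uqcrfs1, the Rieske iron-sulfur protein, had the highest nuclear mean. Uqcrfs1 was at 183, 402 and 307 FPKM in SC_ConD 1 to 3, at 259, 460.3, 197, 191 and 249 in SF_ConD 1 to 5 and at 197, 239, 202, 175 and 519.6 in SF_HPD 1 to 5. SF_ConD 2 and SF_HPD 5 stood above the rest of their groups. Cycs, cytochrome c, carries electrons on to complex IV. For Cycs the libraries gave 44.0, 166 and 79.5 FPKM in SC_ConD, 70.1, 115, 33.4, 40.5 and 57.3 in SF_ConD and 30.5, 81.8, 57.7, 45.4 and 159 in SF_HPD, in replicate order. It was highest in SC_ConD 2 and SF_HPD 5, and the groups overlapped. The core proteins Uqcrc1 and Uqcrc2 ranged 2.38-fold and 3.11-fold, Cyc1, cytochrome c1, ranged 3.91-fold, and the small subunit Uqcrq 15.6-fold.

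Among complex IV genes, Cox6a1, the widely expressed form of an accessory subunit whose other form Cox6a2 is used in heart and skeletal muscle, had the highest mean of all 38 nuclear genes. In replicate order, Cox6a1 had 1018, 3404 and 936 FPKM in SC_ConD, 1221, 2066, 676, 899.7 and 1276 in SF_ConD and 669.7, 1418, 1119, 245 and 2207 in SF_HPD. SC_ConD 2 was highest, and SF_HPD 4 was lowest by a wide margin. In SF_HPD 4 the muscle form Cox6a2, which is no member, was at its highest, 265 FPKM, against 65.6 in SC_ConD 3 and at most 9.13 elsewhere, and the muscle markers were also highest there. The part of muscle RNA in the Cox6a1 value was not tested. Cox7a2 had the widest range of the nuclear genes, 29.6-fold, from 49.3 FPKM in SF_HPD 1 to 1457 in SC_ConD 2. Cox5a had the narrowest of the complex, 4.12-fold, and Cox4i1, Cox5b, Cox6b1 and Cox7b ranged 9.96-fold to 11.9-fold.

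In complex V, Atp5b, the catalytic beta subunit, had the highest mean. SC_ConD 1 to 3 had 521, 666 and 395 FPKM of Atp5b, SF_ConD 1 to 5 had 363, 670.5, 229, 314 and 311 and SF_HPD 1 to 5 had 423, 261, 372, 356 and 677. SF_HPD 5, SF_ConD 2 and SC_ConD 2 were highest, 1 in each group. Atp5a1, the alpha subunit beside it, had the narrowest range of all 51 members, 2.05-fold. Atp5a1 was at 378, 369 and 282 FPKM in SC_ConD 1 to 3, at 336, 537, 262, 282 and 278 in SF_ConD 1 to 5 and at 352, 465, 286, 367 and 519 in SF_HPD 1 to 5. The groups overlapped. Atp5c1, the gamma subunit of the central stalk, and Atp5d, Atp5o and Atp5j ranged 4.78-fold to 10.3-fold.

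Of the mitochondrial genes, mt-Co1, the catalytic core of complex IV, had the highest level. For mt-Co1 the libraries gave 44178, 33422 and 63668 FPKM in SC_ConD, 38079, 48001, 40970.2, 38414 and 132206 in SF_ConD and 7208, 34075, 24539.9, 22561 and 116688 in SF_HPD, in replicate order. SF_ConD 5 and SF_HPD 5 were highest, and SF_HPD 1 was lowest, an 18.3-fold range. The complex III gene mt-Cytb, cytochrome b, moved closely with it. In replicate order, mt-Cytb had 24242, 16036 and 31588 FPKM in SC_ConD, 21595, 26450.5, 20295, 20754 and 74704 in SF_ConD and 3383, 18780.0, 13524, 13086 and 64701 in SF_HPD. Its level stayed between 46.9% and 58.0% of that of mt-Co1 in all 13 libraries. In complex I the highest was mt-Nd1. SC_ConD 1 to 3 had 11691, 21007 and 33589.8 FPKM of mt-Nd1, SF_ConD 1 to 5 had 17732, 21809, 16024, 14575 and 43018 and SF_HPD 1 to 5 had 2391, 25666, 13202, 10585 and 52569. It was 26.5% to 75.3% of mt-Co1, with the lowest share in SC_ConD 1 and the highest in SF_HPD 2.

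The complex I genes mt-Nd2 and mt-Nd4 code for subunits of the membrane arm. mt-Nd2 was at 11979, 5695 and 14583 FPKM in SC_ConD 1 to 3, at 9989, 10095, 11054, 10231 and 35939.9 in SF_ConD 1 to 5 and at 1176, 3821, 4523, 7149.5 and 22694 in SF_HPD 1 to 5. For mt-Nd4 the libraries gave 11044, 6449 and 12157 FPKM in SC_ConD, 7523, 8314, 10909, 7941 and 28507 in SF_ConD and 846, 5442, 4456, 6109 and 21359 in SF_HPD, in replicate order. For both, SF_ConD 5 and SF_HPD 5 were the highest libraries and SF_HPD 1 the lowest. The gene mt-Nd6 is the only member on the other strand. In replicate order, mt-Nd6 had 3616, 1091 and 3390.2 FPKM in SC_ConD, 1639, 1146, 4493, 2345 and 8405 in SF_ConD and 1246, 1039.7, 1269, 3763 and 3049.8 in SF_HPD. It was highest in SF_ConD 5 and SF_ConD 3 and lowest in SF_HPD 2, a range of 8.08-fold, the narrowest of the 13, and in percent of mt-Co1 it was highest in SF_HPD 1 (17.3%) and lowest in SF_ConD 2 (2.39%). The neighbouring mt-Nd5, which overlaps mt-Nd6 by 14 bases on the opposite strand, was at 2.81% to 20.5% of mt-Co1. Their ratio, mt-Nd6 over mt-Nd5, stayed between 0.663 and 1.48. The sources used here do not say whether counting used strand, so reads in the shared bases cannot be assigned to either gene with certainty.

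The 6 genes inside the span of the chromosome 1 copy had the lowest medians of the 13 mitochondrial genes. In percent of mt-Co1, the median over libraries was 2.37% for mt-Co2, 0.0796% for mt-Atp8, 3.21% for mt-Atp6, 1.93% for mt-Co3, 0.212% for mt-Nd3 and 0.180% for mt-Nd4l. Of the genes on that strand not wholly copied, mt-Nd5 was nearest to them at 5.84%, mt-Nd4, which is copied in part, was at 19.3%, and mt-Nd2 was at 22.9%. Single libraries overlapped: in SF_ConD 2 mt-Atp6 (5.95%) and mt-Co2 (5.04%) were above mt-Nd5 (3.13%), and in SF_HPD 5 mt-Atp6 (4.02%) was above mt-Nd5 (3.76%). Reads were also listed for the copies: Gm28661 had 54.8 to 2192 FPKM, Gm10925 had 45.4 to 2903 and Gm28437 had 90.7 to 3673. Adding each copy to its member raised the medians to 3.77% for mt-Co2, 5.57% for mt-Atp6, 5.32% for mt-Co3, 1.79% for mt-Nd3 and 0.431% for mt-Nd4l, so mt-Atp6 and mt-Co3 then lay close to mt-Nd5. How reads that match more than 1 place were handled is not stated in the sources used here, and its part in these low levels was not tested.

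Of these uncertain genes, mt-Nd4l, mt-Atp6 and mt-Nd3 had the widest ranges of all 51 members. SC_ConD 1 to 3 had 1537, 310.2 and 687 FPKM of mt-Atp6, SF_ConD 1 to 5 had 1477, 2855, 1319.7, 1355 and 4249 and SF_HPD 1 to 5 had 27.0, 354, 155, 700.1 and 4687. This member ranged 174-fold, with SF_HPD 5 and SF_ConD 5 highest and SF_HPD 1 lowest. All 5 SF_ConD libraries were at 1320 FPKM or more and SF_HPD 1 to 4 were at 700.1 or less, while SF_HPD 5 exceeded every SF_ConD library. mt-Atp8 was at 56.4, 10.03 and 15.5 FPKM in SC_ConD 1 to 3, at 126, 50.2, 12.8, 36.4 and 27.7 in SF_ConD 1 to 5 and at 5.74, 24.9, 13.01, 25.9 and 158 in SF_HPD 1 to 5. SF_HPD 5 and SF_ConD 1 were highest, and the ratio of mt-Atp8 to mt-Atp6 ran from 0.00652 in SF_ConD 5 to 0.213 in SF_HPD 1. For mt-Nd3 the libraries gave 40.2, 233 and 164 FPKM in SC_ConD, 89.8, 102, 35.7, 51.02 and 281 in SF_ConD and 7.13, 189, 41.2, 29.1 and 773 in SF_HPD, in replicate order. The libraries SF_HPD 5, SF_ConD 5 and SC_ConD 2 were highest. In replicate order, mt-Nd4l had 262, 20.7 and 53.0 FPKM in SC_ConD, 60.1, 115, 295, 82.4 and 2045 in SF_ConD and 7.25, 26.4, 18.4, 108 and 209.9 in SF_HPD. This was the widest range of all 51 members, 282-fold, with SF_ConD 5 alone above 300 FPKM. The ratio of mt-Nd4l to mt-Nd4 FPKM ran from 0.00320 in SC_ConD 2 to 0.0717 in SF_ConD 5.

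**Figure D2:**
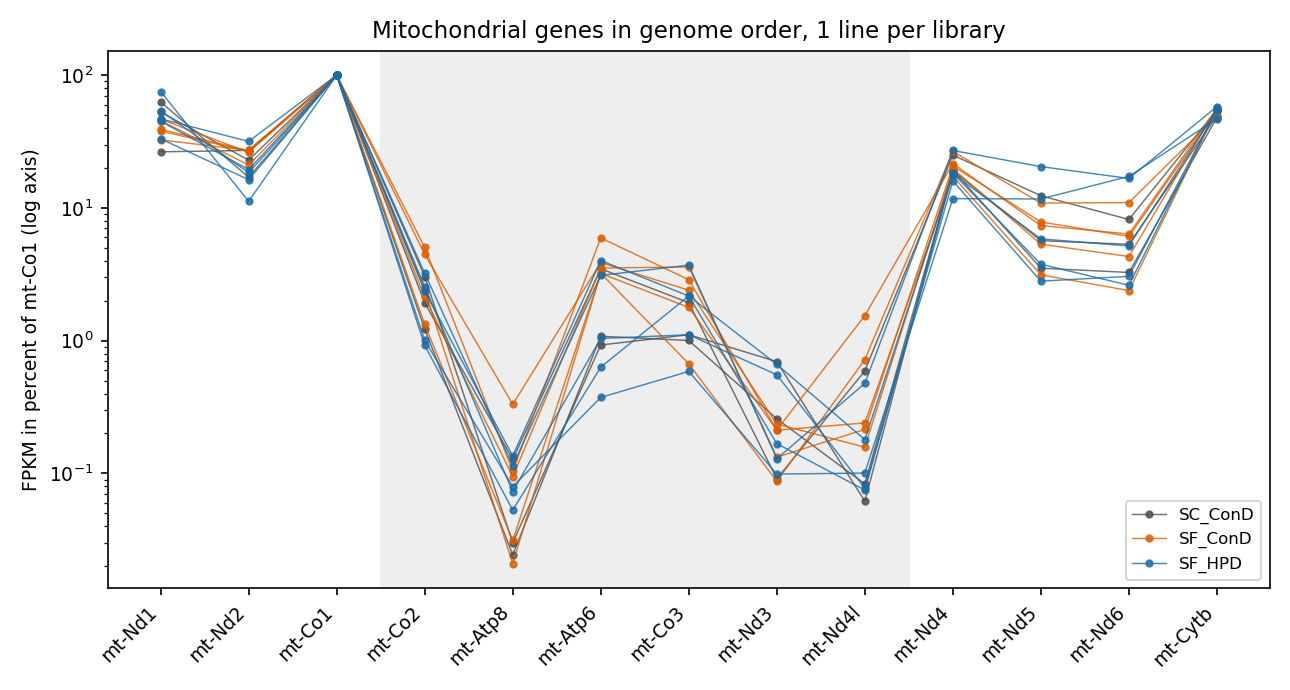
Level of each mitochondrial gene in percent of mt-Co1 (log axis), in genome order from left to right, with 1 line per library coloured by group. The 6 shaded genes lie wholly inside the span copied on chromosome 1, which also covers parts of mt-Co1 and mt-Nd4. Their medians are 0.0796% to 3.21%, and the next lowest are those of mt-Nd6 (5.32%) and mt-Nd5 (5.84%).

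The comparison of SF_ConD with SC_ConD asked what sleep fragmentation did under chow. Of the 38 nuclear genes, 35 had a negative and 3 a positive log2 fold change, with a median of -0.42 against -0.03 for all genes tested, of which 52.6% were negative and 47.4% positive. Of the 13 mitochondrial genes, 12 were positive and 1 negative, with a median of 0.29. No member passed an adjusted p of 0.05 in limma (0 of 51, with 0% of 14421 genes called), none had an unadjusted p under 0.05 (5.74% of all genes did, 2.59% higher and 3.15% lower), and none had groups that did not overlap (1.68% of genes were higher and 1.92% lower in that way). Limma-voom on the recovered reads gave 0 members at either threshold.

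By complex, the nuclear medians were -0.44 for complex I (14 of 15 negative), -0.02 for complex II (2 of 4), -0.15 for complex III (5 of 5), -0.53 for complex IV (7 of 7) and -0.41 for complex V (6 of 6), and Cycs was at -0.53. The smallest p among negative nuclear genes was that of Ndufa9, with a log2 fold change of -0.55 (SE 0.49, limma adjusted p = 0.9995). Ndufs1 had the smallest among positive ones, at 0.22 (SE 0.61). Among mitochondrial genes mt-Nd4l was at 1.60 (SE 1.27) and mt-Nd3 at -0.42 (SE 1.22). The standard error of the mitochondrial genes (median 1.11) was larger than their median difference, and that of the nuclear genes (median 0.62) likewise.

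The nuclear direction rested on SC_ConD 2, the library with the highest nuclear mean and the highest liver markers. Without it 26 of 38 nuclear genes were positive, with a median of 0.11, and without both SC_ConD 2 and SC_ConD 3 it was 31 of 38, with a median of 0.52. The part of liver RNA in the difference was not tested. The mitochondrial direction rested on SF_ConD 5: without it 6 of 13 were positive, with a median of -0.06. Rescaling to TPM left 26 nuclear genes negative and moved the median of all genes to 0.16, and relative to that median the nuclear genes were at -0.34, against -0.39 before rescaling. Rescaling on nuclear genes left 23 negative and moved the median of all genes to 0.27, and relative to that the nuclear genes were at -0.33.

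**Figure D3:**
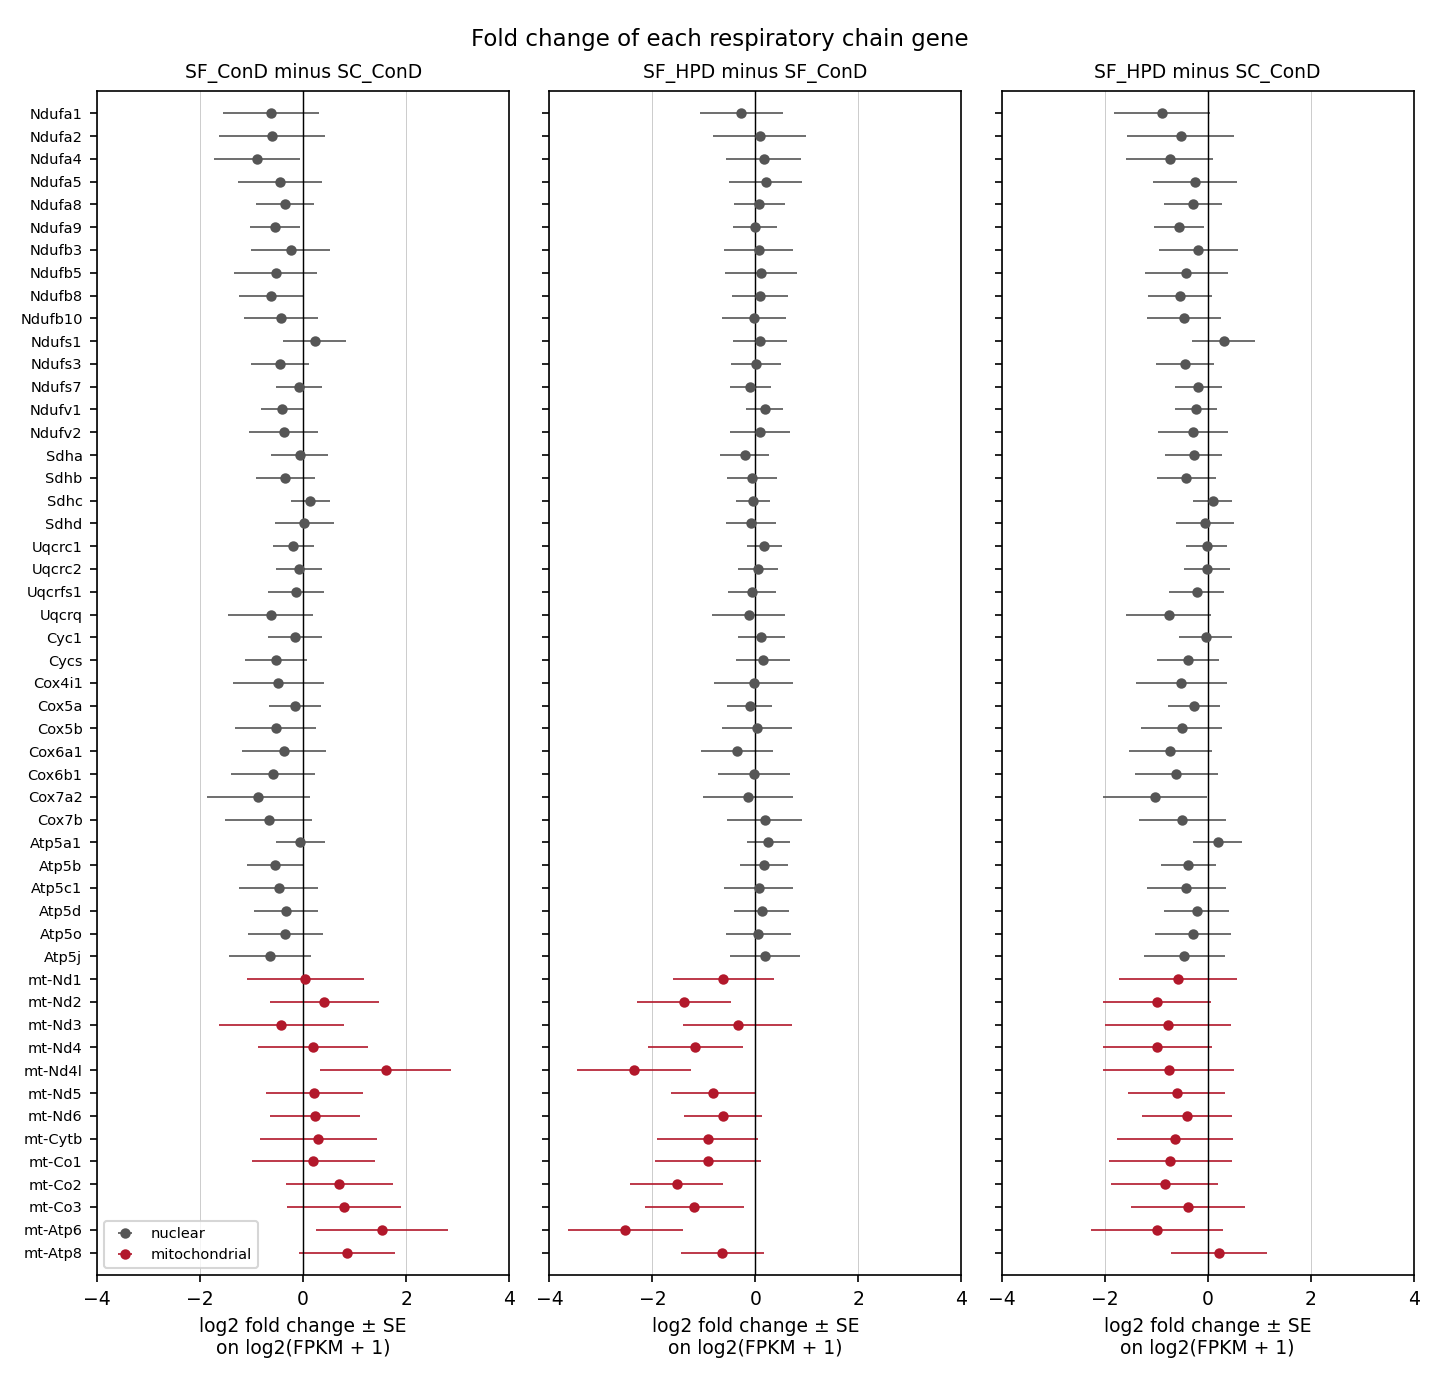
Log2 fold change of each of the 51 genes with its standard error from limma, on log2(FPKM + 1), for 3 comparisons. Nuclear genes are grey and mitochondrial genes red. In the middle panel all 13 mitochondrial genes lie below 0, and the nuclear genes lie between -0.35 and 0.25.

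SF_HPD was set against SF_ConD to ask about the high-protein diet during fragmented sleep. All 13 mitochondrial genes had a negative log2 fold change, from -0.35 for mt-Nd3 to -2.52 for mt-Atp6, with a median of -0.93 against 0.01 for all genes tested, of which 48.1% were negative and 51.9% positive. The nuclear genes were split, 23 positive and 15 negative, with a median of 0.06. No member passed the adjusted test (0 of 51, 0% of 14421 genes called by limma). An unadjusted p under 0.05 was found for 1 member, mt-Atp6, against 1.89% of all genes (0.832% higher and 1.06% lower). Limma-voom on the recovered reads called 0 members and gave 3 with an unadjusted p under 0.05. The share of all genes was not recorded for voom, and the 1.89% belongs to the main fit, so the 3 have no background. No member had groups that did not overlap, against 0.229% of genes higher and 0.229% lower.

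The mitochondrial medians by complex were -0.82 for complex I (7 of 7 negative), -0.93 for mt-Cytb, -1.19 for complex IV (3 of 3) and -1.58 for complex V (2 of 2). The gene mt-Atp6 was at -2.52 (SE 1.11, limma unadjusted p = 0.0403, adjusted p = 0.999994), and mt-Nd4l at -2.36, both inside the copied span. Without the 6 genes of that span the balance difference was -0.95. The nuclear medians were 0.08 for complex I, -0.08 for complex II, 0.05 for complex III, -0.03 for complex IV and 0.15 for complex V, and Cycs was at 0.14. Among nuclear genes, Atp5a1 was at 0.25 (SE 0.41) and Cox6a1 at -0.35 (SE 0.70), and Cox6a1 was at 0.11 without SF_HPD 4.

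The mitochondrial direction held for at least 11 of 13 genes in every alternative run, but its size followed single libraries. The median was -0.50 without SF_HPD 1, -1.46 without SF_HPD 5 and -0.14 without both SF_ConD 5 and SF_HPD 1. The nuclear direction turned with single libraries, and the sign of the fold changes also turned with the scaling. After rescaling on nuclear genes, which put the median of all genes at -0.15, 37 of 38 were negative. Relative to that median the nuclear genes were at 0.003, against 0.04 before rescaling, so they moved with all genes. Without SF_HPD 5, 34 of 38 were negative, whereas 34 were positive without SF_HPD 1. Without SF_HPD 2, the library with the lowest adipocyte markers, 28 of 38 were negative, with a median of -0.17. B cell and lymph node markers were high in SF_ConD 1, 4 and 5 and SF_HPD 4 and 5, and without these libraries all 13 mitochondrial genes were negative, with a median of -1.30, and 25 of 38 nuclear genes.

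SF_HPD was also set against SC_ConD, which shares its SC_ConD libraries with the first comparison and its SF_HPD libraries with the second. Negative log2 fold changes were found for 35 of 38 nuclear genes, with a median of -0.38, and for 12 of 13 mitochondrial genes, with a median of -0.72, against 0.02 for all genes, of which 48.2% were negative and 51.8% positive. No member passed the adjusted test (0 of 51, 0% of 14421 genes in limma), and 0 had an unadjusted p under 0.05, against 3.68% of all genes (1.01% higher and 2.67% lower). Limma-voom on the recovered reads gave 0 members at either threshold. No member had groups that did not overlap, against 0.791% of genes higher and 0.853% lower. The smallest p belonged to Ndufa9 (-0.56, SE 0.49) and Ndufs1 (0.31, SE 0.61) among nuclear genes, and to mt-Nd2 (-0.98, SE 1.05) and mt-Atp8 (0.21, SE 0.93) among mitochondrial genes. Without SC_ConD 2, 26 of 38 nuclear genes were positive, with a median of 0.11, and the mitochondrial median was -0.94. With the replicate number as a block, which compares replicates 1 to 3 alone, the mitochondrial median was -1.51 and 13 of 13 were negative. In that paired fit 0 members passed the adjusted test and 2 had an unadjusted p under 0.05. The share of all genes under 0.05 was not recorded for it.

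The nuclear genes did not all vary together: those with short and with long coding sequences differed across libraries. For each library, deviations of all genes from their means were ranked against gene length, and 4 libraries leaned toward long genes, with a Spearman coefficient over 0.3 (SC_ConD 1, SF_ConD 3, SF_HPD 1 and SF_HPD 4, at 0.484 to 0.563), against -0.436 to 0.0319 in the other 9. This split was taken from the data, the members are among the ranked genes, and every group holds 1 or more of the 4, so what follows is a description. All 30 nuclear members with a coding length under 1000 bases were lower in the 4 libraries, with a median difference of -1.48, and 19 of them had no overlap with the other 9. Over all 14421 genes tested, 13.5% were lower and 13.5% higher without overlap in the 4 libraries, which were chosen from these same values. Libraries were ranked by the listed gene length, but members were split by coding length, and the measures differ for some: Ndufb5 (gene length 4995, coding length 567) was at -1.88, Atp5j (3130 and 324) at -1.82 and Cycs (3404 and 315) at -1.12. Of the 8 with a coding length of 1000 or more, 5 were lower and 3 higher, with a median of -0.09. The higher ones were Ndufs1 (1.38, no overlap), Sdha (0.76) and Uqcrc1 (0.36), and the lowest of the 8 was Ndufa9 (-0.89).

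Subunits of 1 complex could point in opposite directions. In complex I, Ndufa1 and Ndufa2 (coding lengths 210 and 297 bases) were at -2.09 and -2.26 in the 4 libraries relative to the rest on the log2 scale, while Ndufs1 (2181 bases) was at 1.38. In complex II, Sdhd (477 bases) was at -1.02 and Sdha (1992 bases) at 0.76. The mean of the 30 short genes was 6.45 ± 0.18 (SD, n = 4) in the 4 libraries and 7.84 ± 0.63 (SD, n = 9) in the rest, whereas that of the 8 long genes was 6.62 ± 0.31 (SD, n = 4) and 6.53 ± 0.40 (SD, n = 9). By group, the long genes were at 6.69 ± 0.31 (SD, n = 3) in SC_ConD, 6.48 ± 0.42 (SD, n = 5) in SF_ConD and 6.57 ± 0.40 (SD, n = 5) in SF_HPD, so the groups differed by less than the spread between libraries. The short genes were at 7.73 ± 1.15 (SD, n = 3), 7.31 ± 0.57 (SD, n = 5) and 7.32 ± 1.04 (SD, n = 5). What gave some libraries this lean was not tested.

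**Figure D4:**
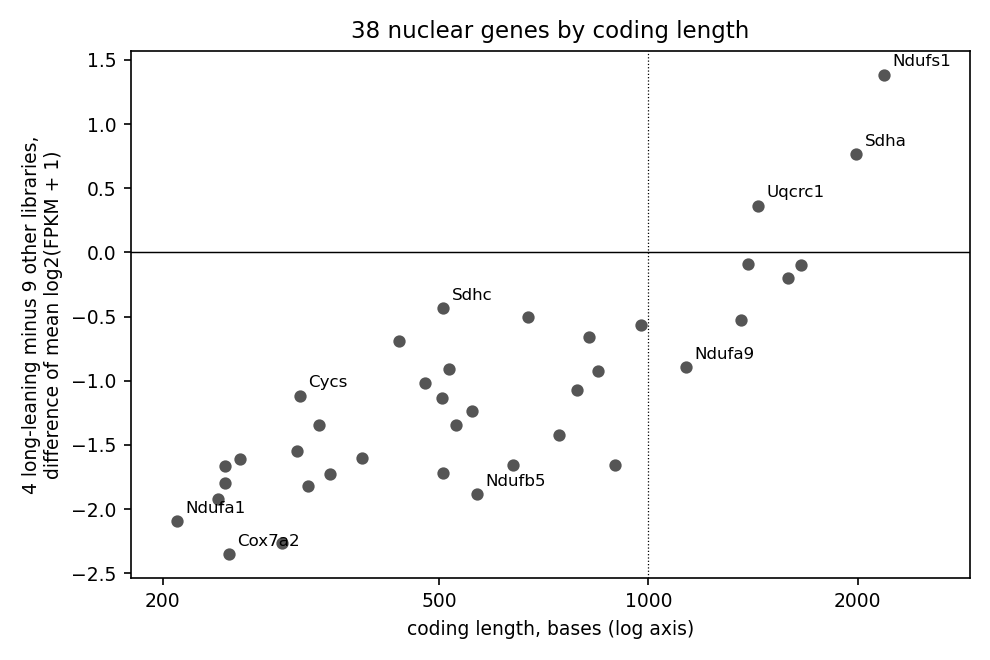
Difference of mean log2(FPKM + 1) between the 4 libraries that lean toward long genes and the other 9, for each of the 38 nuclear genes, against coding length (log axis). The dotted line marks 1000 bases. All 30 genes left of it lie below 0, and Ndufs1, the longest, is at 1.38.

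Within the 9 libraries that did not lean toward long genes, the balance difference was 1.46 for SF_ConD against SC_ConD, -1.05 for SF_HPD against SF_ConD and 0.41 for SF_HPD against SC_ConD. SC_ConD was then represented by SC_ConD 2 and 3 alone, the pair high in liver markers. The nuclear medians there were -0.72, 0.47 and -0.31 and the mitochondrial ones 0.58, -0.63 and -0.02. Limma called 0 members in each, against 162 and 172 of 14421 genes for SF_ConD and SF_HPD against SC_ConD. An unadjusted p under 0.05 was found for 3 members in SF_ConD against SC_ConD and 0 in the other comparisons. The share of all genes under 0.05 was not recorded for this run, so these counts have no background to be set against. The 4 leaning libraries held 1 of SC_ConD, 1 of SF_ConD and 2 of SF_HPD, too few for values of their own. With every value corrected for length, the nuclear range over libraries was 2.50-fold and the mitochondrial range 16.6-fold. With the lean as a covariate over all libraries, the nuclear medians were -0.53, 0.17 and -0.37 and the mitochondrial ones 0.29, -0.88 and -0.71. Limma then called 0 members, and 4, 1 and 0 members had an unadjusted p under 0.05, in the same order of comparisons. The share of all genes under 0.05 was not recorded there, and the lean was taken from these same values.

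**Figure D5:**
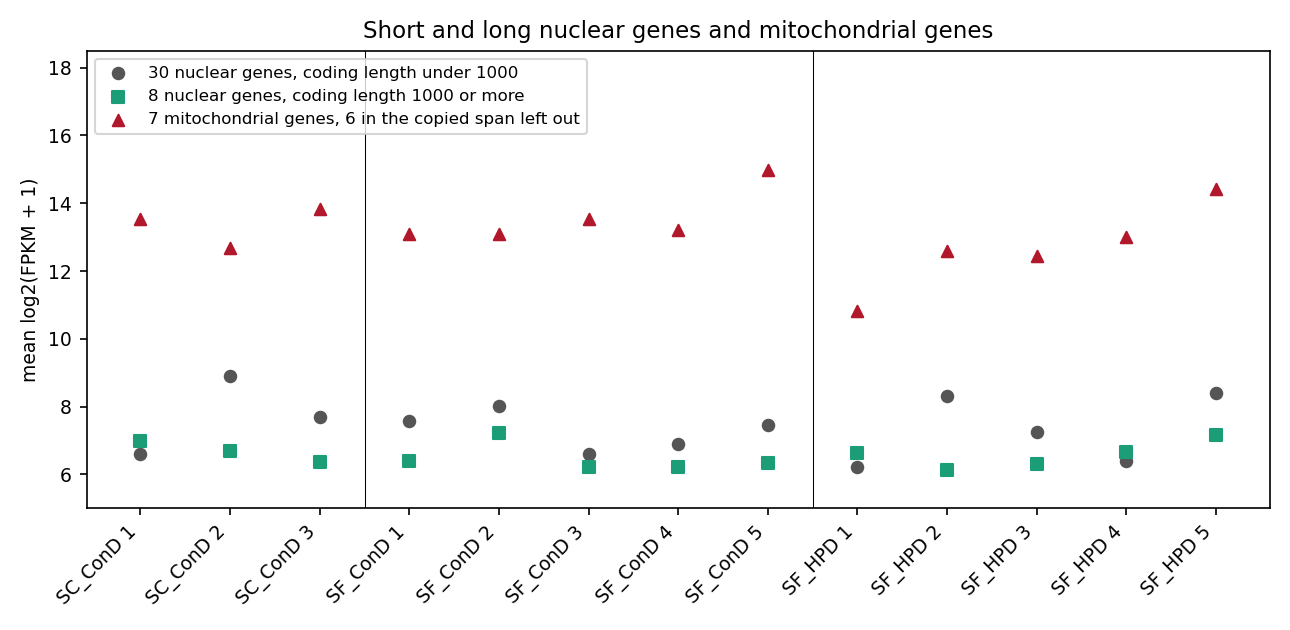
Mean log2(FPKM + 1) in each library of the 30 nuclear genes with a coding length under 1000 bases, the 8 with 1000 or more, and 7 mitochondrial genes, those inside the chromosome 1 copy's span left out. Vertical lines separate the groups. The long nuclear genes stay between 6.12 and 7.22, and the short ones between 6.22 and 8.90.

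Promoters of the nuclear genes were read from RefSeq (GRCm38.p6, 250 bases before to 50 after the start), where 30 of 38 members had an entry that could be used. Binding sites of NRF1, a regulator of many respiratory chain genes, were searched on both strands as GCGCA, any base, then GCGC, and found in 8 of 30 members (26.7%), against 5.19% of 27025 genes with a window of that length. The YY1 motif AAGATGGC was in 4 (13.3% against 3.19%), the ETS motif CCGGAAGT bound by GABPA in 1 (3.33% against 4.31%) and the ESRRA motif CAAGGTCA in 1 (3.33% against 1.76%). At least 1 of the 4 motifs was in 13 members (43.3%) against 13.3% of genes. No motif contains another, and a match describes the letters only. Sdha held 3 NRF1 matches and Cox6a1 held 2, the most per window together with Uqcrc1. Both are shown upstream of annotated exons, 5′ to 3′ on the gene's strand, with the motif in capitals: Sdha at chr13:74350282-74350346 (minus strand, 2 of its 3 matches) and Cox6a1 at chr5:115349059-115349128 (minus strand).
Sdha: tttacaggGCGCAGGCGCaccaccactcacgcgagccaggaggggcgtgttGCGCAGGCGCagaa
Cox6a1: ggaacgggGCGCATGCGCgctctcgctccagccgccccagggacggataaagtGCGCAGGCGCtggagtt
Both genes hold the motif, and their highest libraries differed: Sdha was highest in SC_ConD 1 and Cox6a1 in SC_ConD 2.

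Other genes of the pathway were taken from lists of known function, given as counts positive and negative, first for fragmentation under chow, then for the diet under fragmentation and last for SF_HPD against SC_ConD. The 39 other nuclear subunits counted 0 and 39, 23 and 16, and 1 and 38. Their medians were -0.51, 0.06 and -0.53, close to those of the 38 members. Of all genes tested, 47.4%, 51.9% and 51.8% were positive. The mean log2(FPKM + 1) of these 39 was highest in SC_ConD 2, at 8.72, against 5.80 and 7.38 in SC_ConD 1 and 3. It was 5.95 to 7.32 in SF_ConD and 5.44 to 8.31 in SF_HPD. For 40 assembly factors the counts were 7 and 33, 26 and 14, and 9 and 31. For the 78 mitochondrial ribosome proteins they were 18 and 60, 35 and 43, and 15 and 63. For 29 genes that copy, transcribe and process mitochondrial DNA and RNA they were 14 and 15, 9 and 20, and 11 and 18, and for 16 citric acid cycle genes 7 and 9, 6 and 10, and 6 and 10. None of these genes passed the adjusted limma test in any of the 3 comparisons.

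Named by the smallest p, the subunit Ndufab1, also the acyl carrier protein, was at -0.65 (SE 0.50) in SF_HPD against SC_ConD, and Ndufv3 and Ndufc1 were at -0.87 (SE 0.70) and -0.97 (SE 0.79) in SF_ConD against SC_ConD. The complex I assembly factor Ndufaf1 was at -0.51 (SE 0.28) in that comparison, Cox18, an insertase for complex IV, at -0.61 (SE 0.36) in SF_HPD against SC_ConD, and Coa7 at 0.63 (SE 0.40) in SF_HPD against SF_ConD. Of the RNA machinery, Pnpt1, an RNA-degrading enzyme, was at -0.77 (SE 0.35) and Elac2, which cuts tRNA ends, at -0.61 (SE 0.32) in SF_HPD against SC_ConD. Fastkd5, an RNA-processing factor, was at 0.56 (SE 0.28) in SF_ConD against SC_ConD. Its level was near the filter's limit, at 0 to 0.787 FPKM in SC_ConD and 0.689 to 1.62 in SF_ConD. Ribosomal Mrps6 was at -1.44 (SE 0.69) in SF_HPD against SC_ConD, with 198 FPKM in SC_ConD 2 against at most 84.4 elsewhere. In the citric acid cycle, Fh1, fumarase, was at -0.82 (SE 0.41) and Idh3b at -0.55 (SE 0.49) in SF_HPD against SC_ConD. None of these passed the adjusted test.

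Of 10 regulators of mitochondrial biogenesis, 5 were positive in SF_ConD against SC_ConD, 7 in SF_HPD against SF_ConD and 5 in SF_HPD against SC_ConD. Esrra, a nuclear receptor that drives respiratory chain genes, had 28.1, 14.0 and 11.9 FPKM in SC_ConD 1 to 3, 22.8, 40.8, 23.9996, 22.8 and 25.1 in SF_ConD 1 to 5, and 34.6, 53.4, 32.9, 22.5 and 39.5 in SF_HPD 1 to 5. The SC_ConD libraries 2 and 3, which carried liver markers, were lowest, and SC_ConD 1 lay among the others. Its log2 fold change in SF_HPD against SC_ConD was 1.03 (SE 0.37, limma adjusted p = 0.947). Nrf1 had 1.63, 0.859 and 1.53 FPKM in SC_ConD 1 to 3 and 2.72, 2.07, 2.20, 2.74 and 1.84 in SF_ConD 1 to 5, with no overlap, as 1.68% of genes had in that direction. Its difference of 0.51 (SE 0.25) did not pass (limma adjusted p = 0.875), and the SF_HPD libraries had 1.06 to 2.20 FPKM.

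Another 4 subunit isoforms, Cox4i2, Cox6a2, Cox7a1 and Cox8b, were also described by library. Cox8b was at 1314 FPKM in SF_HPD 5, where the brown or beige markers were highest, 716 in SF_ConD 2 and 610 in SF_ConD 5. Its lowest value was 3.21 in SF_HPD 2, where adipocyte markers were lowest, and the other libraries had 59.3 to 277. Cox7a1 was at 126 FPKM in SF_HPD 5 and 68.8 in SF_HPD 4, against 2.98 to 48.8 elsewhere. Since Cox8b and Cox7a1 are also on the brown or beige list, the pair is no separate evidence of that list. Cox4i2 was between 2.60 and 12.9 FPKM.

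The ribosomal RNAs of the mitochondrial genome were counted apart from the 13 members. The small rRNA mt-Rnr1 had 1790, 7679 and 6870 FPKM in SC_ConD 1 to 3, 2354, 3534, 2356, 2100.5 and 8623 in SF_ConD 1 to 5, and 415, 2703, 2244, 493 and 6961 in SF_HPD 1 to 5. SF_ConD 5 and SF_HPD 5 were again high and SF_HPD 1 lowest, but SC_ConD 2, whose mitochondrial mean was the lowest of its group, had the second highest value. Both rRNAs had negative log2 fold changes in all 3 comparisons, with medians of -0.58, -0.83 and -1.41, and neither passed the test.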

How the data were processed

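The deposited FPKM table was made by the authors from total RNA, isolated with TRIzol per the labels' protocols. The submitters' processing notes name CASAVA, HISAT2 2.0.5, featureCounts 1.5.0-p3 and mm8. The listed gene positions equal those of the GRCm38 annotation in 53499 of 54532 rows (50 of 51 members), so coordinates are given on GRCm38. Whole reads were recovered from the FPKM steps (100.0% of values whole within 0.05), and the scaling total was 0.479 to 1.23 times the recovered reads. The precision of each value depends on 14815592 to 18303302 reads per library.

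The 14421 genes that reached 1 FPKM in 3 or more libraries were tested on log2(FPKM + 1), a scale that understates changes of low genes. The test was limma 3.58.1 (trend, robust, two-sided, Benjamini-Hochberg threshold 0.05, R 4.3.3), with 3 group means over 13 libraries. The code was also run on simulated counts drawn around a shared profile, without the tissue and length differences of these libraries. That run does not measure the power of the test in these data. Summaries used Python 3.11.15. Each library is 1 mouse per the labels. Alternatives covered the pseudocount, filters, scalings, adjustments for length, voom, the replicate block and left-out libraries. Members and lists were chosen with earlier results of these data known. Given in every library were the highest member of each complex and genome, the smallest p in each direction, comparison and genome, overlapping mitochondrial pairs and mt-Nd6. From each pathway list at most 3 genes of smallest p were eligible to be named.

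The labels number replicates without saying what a number shares. Same-numbered SF_HPD and SC_ConD libraries had correlated deviations (0.711, 0.333 and 0.191), which met the threshold of 0.1 for a paired fit, although number 3 did not correlate best with its own number. The other comparisons did not meet it (SF_ConD with SC_ConD -0.558, 0.190 and -0.316, and SF_HPD with SF_ConD -0.670, 0.119, -0.113, 0.325 and 0.405). SC_ConD 1 and SF_HPD 1, the pair at 0.711, leaned most toward long genes (0.559 and 0.563), and SF_ConD 1 leaned the other way (-0.436). The part of the lean in these correlations was not tested. The main fit was unpaired in every comparison, and the replicate block was run as an alternative.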

Additional observations from a re-analysis of the deposited data

Results flagged for a closer look

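Within groups of 5, the highest library stood far from the others (Dixon's 95% limit) for 20 values out of 48 group and quantity pairs. Chance gives about 1 in 20 for normally distributed values, but most of the flagged values are FPKM without a log. They also share libraries and reads and are not independent.

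In SF_ConD 5 the mitochondrial mean was 12.59 on the log2(FPKM + 1) scale (next 11.08) and the mitochondrial read share 32.0% (next 16.5%). The same library stood apart for mt-Co1 at 132206 FPKM, mt-Cytb at 74704, mt-Nd1 at 43018, mt-Nd2 at 35939.9, mt-Nd4 at 28507, mt-Nd4l at 2045 and mt-Nd3 at 281 FPKM. Its B cell and lymph node markers were at 5.09.

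SF_HPD 5 stood apart for mt-Co1 at 116688 FPKM, mt-Cytb at 64700.6, mt-Nd2 at 22694, mt-Nd4 at 21359, mt-Atp6 at 4687, mt-Nd3 at 773 (772.5) and mt-Atp8 at 158 FPKM. It also did so for nuclear Uqcrfs1 at 519.6 FPKM, against 239 in the next library. Its brown or beige markers were the highest, at 5.17, and their part in these values was not tested.

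SF_ConD 2 stood apart for nuclear genes only: their read share was 1.94% (next 1.22%), Uqcrfs1 was at 460.3 FPKM (next 259) and Atp5a1 at 537 FPKM (next 336).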

How the results depend on the processing

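Over 30 settings and 625 recomputed values, 477 had a sign, and 40 of these changed it: 21 for single genes and 19 for medians or balance differences, of which 16 moved by less than 1 SD of the libraries and 3 by more. Of the 16, the nuclear median of SF_HPD against SF_ConD (0.06) was -0.19 to -0.05 in 7 settings, among them -0.15 after rescaling on nuclear genes. The median of all genes was also -0.15 after that rescaling. The mitochondrial median of SF_ConD against SC_ConD (0.29) was -0.03 with the replicate block and -0.06 without SF_ConD 5. The balance difference of SF_HPD against SC_ConD (-0.29) was 0.07 without SF_HPD 1, 0.30 without SC_ConD 1 and 0.41 without the 4 libraries that lean toward long genes. Both nuclear medians against SC_ConD turned to 0.11 without SC_ConD 2. The number of members called by limma stayed at 0 in all 74 recomputations. Settings that leave out libraries for their markers, length lean or mitochondrial share were chosen after seeing the data.

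With the replicate number as a block, mt-Atp8 was at -0.70 and Ndufs1 at -0.0907 in SF_HPD against SC_ConD, and no call changed. For this comparison the block keeps the same libraries as leaving out those rich in lymphoid markers. Both settings therefore give the same fold changes and are 1 check, and the shift does not show an effect of pairing. Leaving out 1 library at a time gave -0.68 to 0.11 for Cox6a1 (SF_HPD against SF_ConD), -0.45 to 0.91 for mt-Atp8 and -0.0374 to 0.999 for Ndufs1 (SF_HPD against SC_ConD), and -1.17 to 0.0778 for mt-Nd3 and -0.12 to 0.91 for Ndufs1 (SF_ConD against SC_ConD). All genes called then ranged from 0 to 194 in SF_ConD against SC_ConD, 0 to 1 in SF_HPD against SF_ConD and 0 to 196 in SF_HPD against SC_ConD, and both high counts came without SC_ConD 1.

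Without the 5 libraries rich in lymphoid markers, Atp5a1 was at -0.0571 (SF_HPD against SF_ConD). In SF_HPD against SC_ConD, mt-Atp8 was at -0.70 and Ndufs1 at -0.0907, the same fit values as with the replicate block. Without SC_ConD 2 and 3, SF_ConD against SC_ConD gave a nuclear median of 0.52, a balance difference of -0.30, and -0.36 for mt-Nd4l, 1.08 for mt-Nd3, -1.15 for Ndufs1 and 0.17 for Ndufa9. SF_HPD against SC_ConD then gave a nuclear median of 0.51, with -1.18 for mt-Atp8, -1.07 for Ndufs1 and 0.16 for Ndufa9. SC_ConD 1 was then alone and assumed to vary like the other groups. Without the 4 libraries that lean toward long genes, 162 genes were called in SF_ConD against SC_ConD and 172 in SF_HPD against SC_ConD, and Cox6a1 was at 0.22 in SF_HPD against SF_ConD. The cause of these changes was not tested. The median standard error of mitochondrial genes was 0.96 to 1.11.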
